A study of Mus musculus with 20 samples.

Results

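A panel of 43 genes of neural tube closure and planar cell polarity was followed in cultured mouse conceptuses exposed to mono-2-ethylhexyl phthalate (MEHP), the monoester to which the plasticiser di-2-ethylhexyl phthalate is cleaved in the body. The genes were chosen by name, with earlier results of these data known. All 43 are measured among 20794 genes, through 108 of 38367 probe sets that carry a gene symbol. Each gene is represented by its brightest probe set over the 20 arrays. By known role, 10 act in planar polarity, 13 in the actin cytoskeleton, 2 in the surface ectoderm, 9 in cilia and hedgehog signalling, 5 in chromatin and transcription and 4 in signalling and cell survival.

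The neural tube forms when the neural plate narrows and lengthens, bends at hinge points, and fuses at the midline beneath the surface ectoderm. Planar polarity proteins, which give cells of a sheet a common direction, drive the narrowing. Actin and myosin at the cell apex drive the bending, and primary cilia pass on the hedgehog signal that patterns the closing tube. Loss of a single one of them is, for many, enough to leave the neural tube of a mouse open.

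All samples are from CD-1 mice, an outbred stock. Conceptuses were taken from untreated dams on gestational day 8, kept 24 hours in whole embryo culture and dissected on gestational day 9 into embryos and visceral yolk sacs. The visceral yolk sac is the extraembryonic membrane that feeds the embryo at that stage. The groups of each tissue were 3 arrays with 100 µg/ml MEHP and a neural tube defect (NTD), 3 with the same dose and no NTD, 1 control with an NTD and 3 controls without, the controls having 0.01% DMSO. No source used here says whether the arrays of a group came from separate litters or cultures, so a p-value measures only the spread between these arrays. The files give the arrays of a group no replicate number, so an array that is singled out is called by its place in the order in which the values of its group are listed. They are whole tissues, in which fewer cells of a type and less RNA per cell cannot be told apart.

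Levels are log2 values as the authors deposited them, normalized by robust multi-array averaging (RMA). A difference is the log2 difference of 2 group means with its standard error (SE) from limma, 3 arrays a group, and a gene passed where its p-value, adjusted over all 20794 genes, was below 0.05. The spread between arrays of a group was typical, with a median residual standard deviation of 0.11 over the members in embryos (0.11 over all genes) and 0.10 in yolk sacs (0.10). The tissue of each array was read from the authors' deposited comparisons. Headings of a second value table would put 8 of the 20 arrays in the other tissue. Markers matched the tissue so read. The median of 12 visceral endoderm markers was 5.32 to 7.71 in embryos and 12.35 to 12.67 in yolk sacs. All 8 neural ectoderm markers were higher in control embryos. Within the embryos that visceral endoderm level was highest in 1 MEHP array with NTD (6.83), 1 MEHP array without (7.71) and 1 control (7.41), against 5.32 to 5.98 in the other 7. Probe sets that match no mouse transcript, a measure of nonspecific signal, stood at 3.65 to 3.80 in MEHP embryos and 3.91 to 4.05 in control embryos, with no overlap (6 against 4 arrays, two-sided exact permutation p = 0.00476). In yolk sacs they were 3.70 to 3.83 with MEHP and 3.87 to 4.08 in controls (exact permutation p = 0.00476). With this level as a covariate in the fit, 0 members passed in any comparison of MEHP with controls, and 0 genes in all in the embryo ones. As the level separates exposed from control arrays completely, it and exposure cannot be told apart in that fit. A sign of RNA quality is the excess of 3' over 5' signal, called high where above 0.3 for Gapdh and above 0.85 for Actb. It was high in the first MEHP embryo array with NTD (0.35 and 0.86). The third control embryo array (0.31 and 0.88) and the second control yolk sac array (0.48 and 0.96) were high too. The first control yolk sac array (0.39) and the second MEHP yolk sac array without NTD (0.32) were above the limit for Gapdh alone.

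The strongest contrast in the panel was between tissues. In controls without NTD, 29 of the 43 genes passed, 23 higher in embryos and 6 higher in yolk sacs (67.4%, where 51.3% of all genes passed, 28.4% higher and 22.8% lower). At an unadjusted p below 0.05 there were 31, against 55.5% of all genes (both directions). The median difference was 0.25 over the members and 0.03 over all genes. Arrays of the tissues did not overlap for 24 members higher in embryos and 7 lower, against 30.4% and 24.9% of all genes. The members were chosen as genes of embryonic morphogenesis, and a lean towards the embryo is not independent of that choice. Most members also lie above the median level of all genes, 5.72. The shares over all genes, here and below, are therefore not those of genes of like level.

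Promoter sequence is shown here for the genes with the widest tissue difference in each direction, Celsr2 and Vangl2 (embryo) and Dvl1 and Rock2 (yolk sac), among the 35 of 43 members matched by symbol in RefSeq (GRCm38.p6). Each is the 250 bases before the annotated start, read 5′ to 3′ on the gene's strand, with capitals marking GGGCGG on either strand, the GC box that Sp and Klf factors bind. The windows are chr3:108415580-108415829 (minus strand) for Celsr2, chr1:172027296-172027545 (minus) for Vangl2, chr4:155847152-155847401 (plus) for Dvl1 and chr12:16894728-16894977 (plus) for Rock2.
Celsr2: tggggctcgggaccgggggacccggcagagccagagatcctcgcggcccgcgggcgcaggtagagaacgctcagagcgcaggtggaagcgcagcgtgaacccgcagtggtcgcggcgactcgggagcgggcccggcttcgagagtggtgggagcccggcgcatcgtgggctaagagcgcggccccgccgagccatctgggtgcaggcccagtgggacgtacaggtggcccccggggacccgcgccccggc
Vangl2: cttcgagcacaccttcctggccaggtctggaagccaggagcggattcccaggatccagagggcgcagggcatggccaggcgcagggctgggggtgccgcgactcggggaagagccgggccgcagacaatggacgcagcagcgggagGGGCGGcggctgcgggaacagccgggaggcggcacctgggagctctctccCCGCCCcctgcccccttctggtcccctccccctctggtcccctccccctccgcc
Dvl1: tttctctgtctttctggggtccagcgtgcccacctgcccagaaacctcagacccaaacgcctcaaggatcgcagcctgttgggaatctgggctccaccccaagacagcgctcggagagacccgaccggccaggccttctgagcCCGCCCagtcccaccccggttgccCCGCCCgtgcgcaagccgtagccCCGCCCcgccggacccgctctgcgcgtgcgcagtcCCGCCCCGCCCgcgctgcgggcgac
Rock2: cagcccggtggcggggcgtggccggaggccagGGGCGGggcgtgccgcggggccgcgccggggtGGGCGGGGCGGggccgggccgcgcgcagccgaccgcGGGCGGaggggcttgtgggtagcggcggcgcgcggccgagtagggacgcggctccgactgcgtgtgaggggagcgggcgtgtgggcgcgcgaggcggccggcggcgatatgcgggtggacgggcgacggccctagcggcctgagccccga

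GC boxes number 0 in the Celsr2 window, 2 in that of Vangl2, 5 in that of Dvl1 and 4 in that of Rock2, where matches that overlap are counted singly. Of the 35 member promoters 62.9% hold at least 1 GGGCGG on either strand, and among 27025 RefSeq promoters the share is 32.9%. The 35 are rich in G and C, with a median of 64% against 52% over all promoters. AACCGGTT, the site that grainyhead-like factors such as Grhl2 and Grhl3 bind, is in 0 of the 35 and in 0.122% of all. AGATAA, bound by GATA factors, is in 0 of the 35 and in 10.3% of all. These counts describe the letters of the windows and no more.

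Among planar polarity genes, 6 of 10 were higher in control embryos and 2 higher in control yolk sacs. The shares over all genes, 28.4% and 22.8%, also stand beside the counts of the other roles below. Celsr1, an atypical cadherin that joins neighbouring cells in the polarity complex, had 7.57, 7.56 and 7.77 in control embryos and 4.25, 4.27 and 4.32 in control yolk sacs. The embryo arrays all stood far above those of the yolk sac (at least 3.35 ± 0.09, adjusted p by limma = 4.58e-15). The yolk sac signal of Celsr1 lay within 0.5 of the highest nonspecific level there, 4.08, so that its difference is a lower bound. Its relative Celsr2 averaged 7.78 in embryos and 5.16 in yolk sacs (2.62 ± 0.08). Vangl2, the core membrane protein mutated in the loop-tail mouse, had 8.95, 9.02 and 8.97 in control embryos and 6.62, 6.52 and 6.5 in control yolk sacs (2.43 ± 0.08, limma adjusted p = 1.27e-13).

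The paralog of Vangl2 ran the other way. Vangl1 had 6.24, 6.56 and 6.07 in control embryos and 7.27, 6.99 and 7.22 in control yolk sacs, without overlap (-0.87 ± 0.12, limma adjusted p = 5.61e-06). Dvl genes, whose products carry the Wnt and polarity signals into the cytoplasm, also parted: Dvl1 was lower in embryos (-1.25 ± 0.09, 9.08 against 10.34 in yolk sacs) and Dvl2 higher (0.40 ± 0.09). Dvl3, the remaining one, did not pass (-0.05 ± 0.11) and lay within 0.5 of the nonspecific level in both tissues. Both probe sets of Vangl1 and both of Dvl1 gave the lower embryo level, at -0.90 and -1.34 for the second of each. The second probe set of Dvl2 lay within 0.5 of the nonspecific level in both tissues and bears on neither direction, so the Dvl2 difference rests on 1 probe set. Ptk7, a pseudokinase co-receptor of polarity signalling, was higher in embryos by 1.64 ± 0.14, and Scrib, the scaffold mutated in circletail mice, by 0.48 ± 0.07. Sec24b, which loads Vangl2 into vesicles leaving the endoplasmic reticulum, did not pass (-0.06 ± 0.07).

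**Figure D1:**
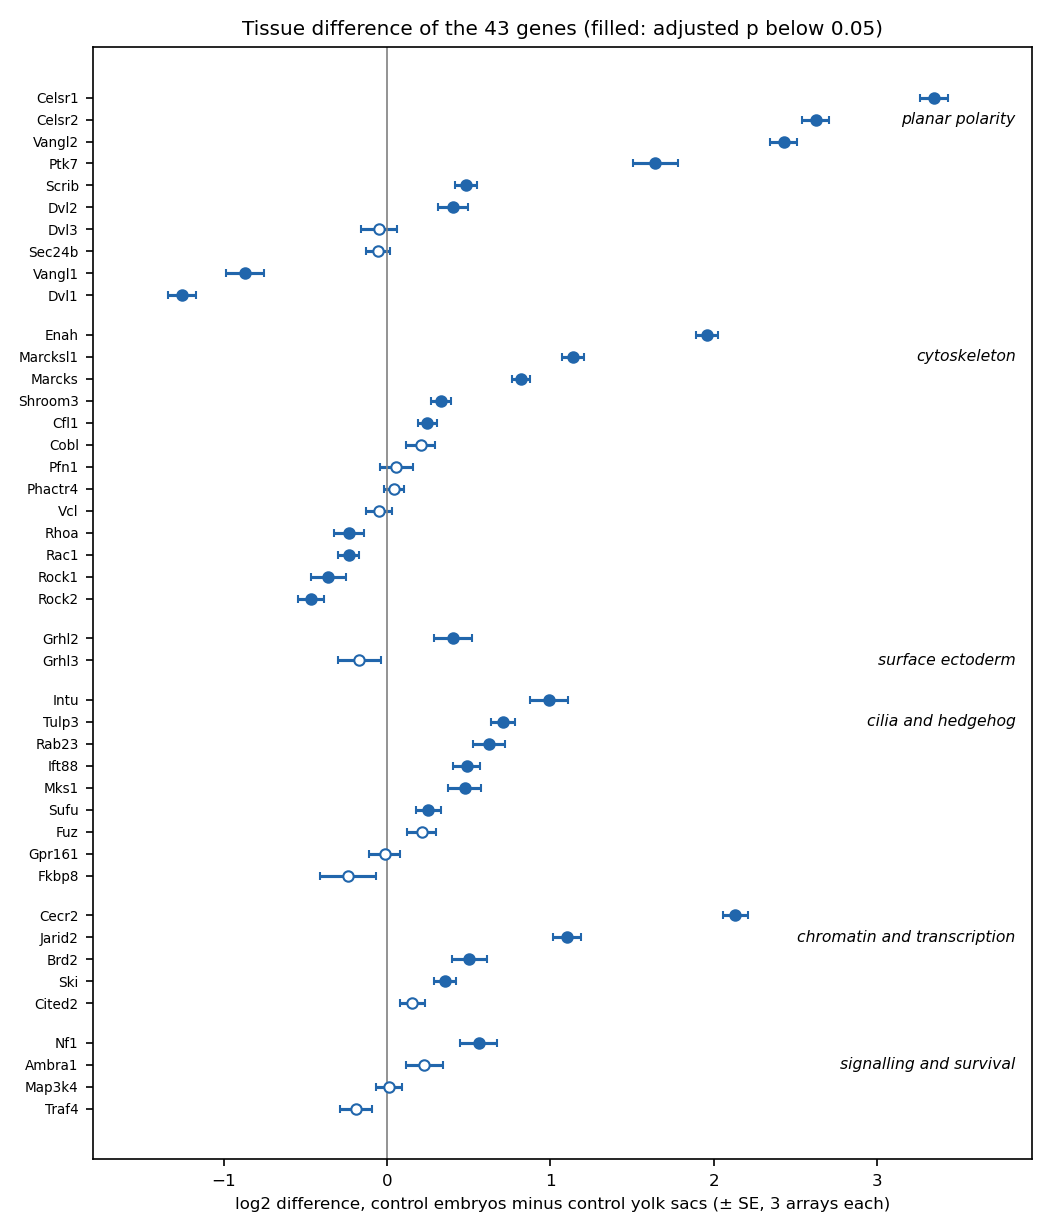
Tissue difference of each gene in controls without NTD, grouped by role. Points are log2 differences, control embryos minus control yolk sacs, bars are the SE (3 arrays each), and filled points passed at an adjusted p below 0.05. Celsr1 (3.35, a lower bound) and Celsr2 (2.62) lie farthest to the right and Dvl1 (-1.25) farthest to the left.

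Of 13 cytoskeletal genes 5 were higher and 4 lower in control embryos. Enah, which extends actin filaments, was higher in embryos by 1.96 ± 0.07, as were the actin-binding protein kinase C substrates Marcksl1 (1.14 ± 0.07) and Marcks (0.82 ± 0.06). Shroom3, which drives constriction of the cell apex (0.33 ± 0.06), and Cfl1, an actin-severing protein (0.24 ± 0.06), were higher by less. The 4 that were lower encode the kinases Rock2 (-0.47 ± 0.08) and Rock1 (-0.36 ± 0.11), which act on myosin, and the small GTPases Rac1 (-0.24 ± 0.06) and Rhoa (-0.23 ± 0.09). The call of Rac1 was lost with the arrays of the contrast alone (limma adjusted p = 0.0546). Rock2 had 7.36, 7.24 and 7.25 in control embryos and 7.85, 7.70 and 7.71 in control yolk sacs, with no overlap. Rhoa was the weakest of these calls: with 1 array left out, it passed only without the first control embryo array (adjusted p = 0.0332) and had adjusted p = 0.0511 to 0.105 without any other single array. Cobl, an actin nucleator, did not pass (0.21 ± 0.09, limma adjusted p = 0.0634), and the other 3 (Pfn1, Phactr4 and Vcl) lay between -0.05 and 0.06.

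Cilia genes were higher in embryos in 6 of 9 cases and lower in 0. Intu (0.99 ± 0.12) helps to assemble cilia, Tulp3 (0.71 ± 0.07) brings receptors into them, Rab23 (0.62 ± 0.10) and Sufu (0.25 ± 0.08) restrain the hedgehog signal, Ift88 (0.49 ± 0.08) carries cargo along the cilium and Mks1 (0.47 ± 0.10) sits at its base. With the mean of a gene's probe sets in place of the brightest, the calls of Sufu (0.01, limma adjusted p = 0.897) and Intu (0.07, 0.384) were lost. That of Sufu was also lost after cyclic loess (0.17, 0.0579) and without the arrays of high 3'/5' signal (0.185, 0.0917). For Intu, 2 of the 3 dimmer probe sets went the other way and passed (-0.29 and -0.60). Fuz, a partner of Intu, did not pass (0.21 ± 0.09, adjusted p by limma = 0.0546), nor did Fkbp8 (-0.24 ± 0.17) or Gpr161 (-0.02 ± 0.09), a ciliary receptor at the nonspecific level in both tissues.

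Chromatin genes followed with 4 of 5 higher in embryos: Cecr2, of a nucleosome remodelling complex (2.13 ± 0.08), Jarid2, a partner of the Polycomb repressor (1.10 ± 0.09), Brd2, a reader of acetylated histones (0.50 ± 0.11), and Ski, a co-repressor in transforming growth factor signalling (0.36 ± 0.07). Cited2, a co-activator, did not pass (0.15 ± 0.08). Of the surface ectoderm factors, Grhl2 was higher in embryos (0.40 ± 0.12) and Grhl3 did not pass (-0.17 ± 0.13, limma adjusted p = 0.303). The calls of Grhl2 (0.12, limma adjusted p = 0.0879) and Shroom3 (0.09, 0.158) were lost with the mean of probe sets, as was that of Grhl2 without the arrays of high 3'/5' signal (0.39, 0.0521) and that of Cfl1 after cyclic loess (0.13, 0.0772). Nf1, a brake on Ras, was higher by 0.56 ± 0.11. Ambra1 (autophagy), Traf4 (a signalling adaptor) and Map3k4 (a stress kinase) lay between -0.19 and 0.23 and did not pass.

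Of other genes of the same pathways, chosen with earlier results of these data known, 20 of 26 planar polarity genes were higher in embryos and 3 lower (median 0.76), with Sfrp2 (5.01) and Fzd3 (3.73) among those with the smallest p. Cilia genes were higher in 23 of 30 cases and lower in 1 (median 0.63). Cytoskeletal genes split 12 and 13 of 37. Over all genes 28.4% were higher and 22.8% lower in embryos. Surface ectoderm genes were lower in embryos in 17 of 21 cases and higher in 3 (median -1.60), among them Prss8 (-4.19) and Krt8 (-2.12), an epithelial protease and a keratin. The yolk sac has an epithelium of its own, so a count of this list compares tissues and not surface ectoderm alone.

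**Figure D2:**
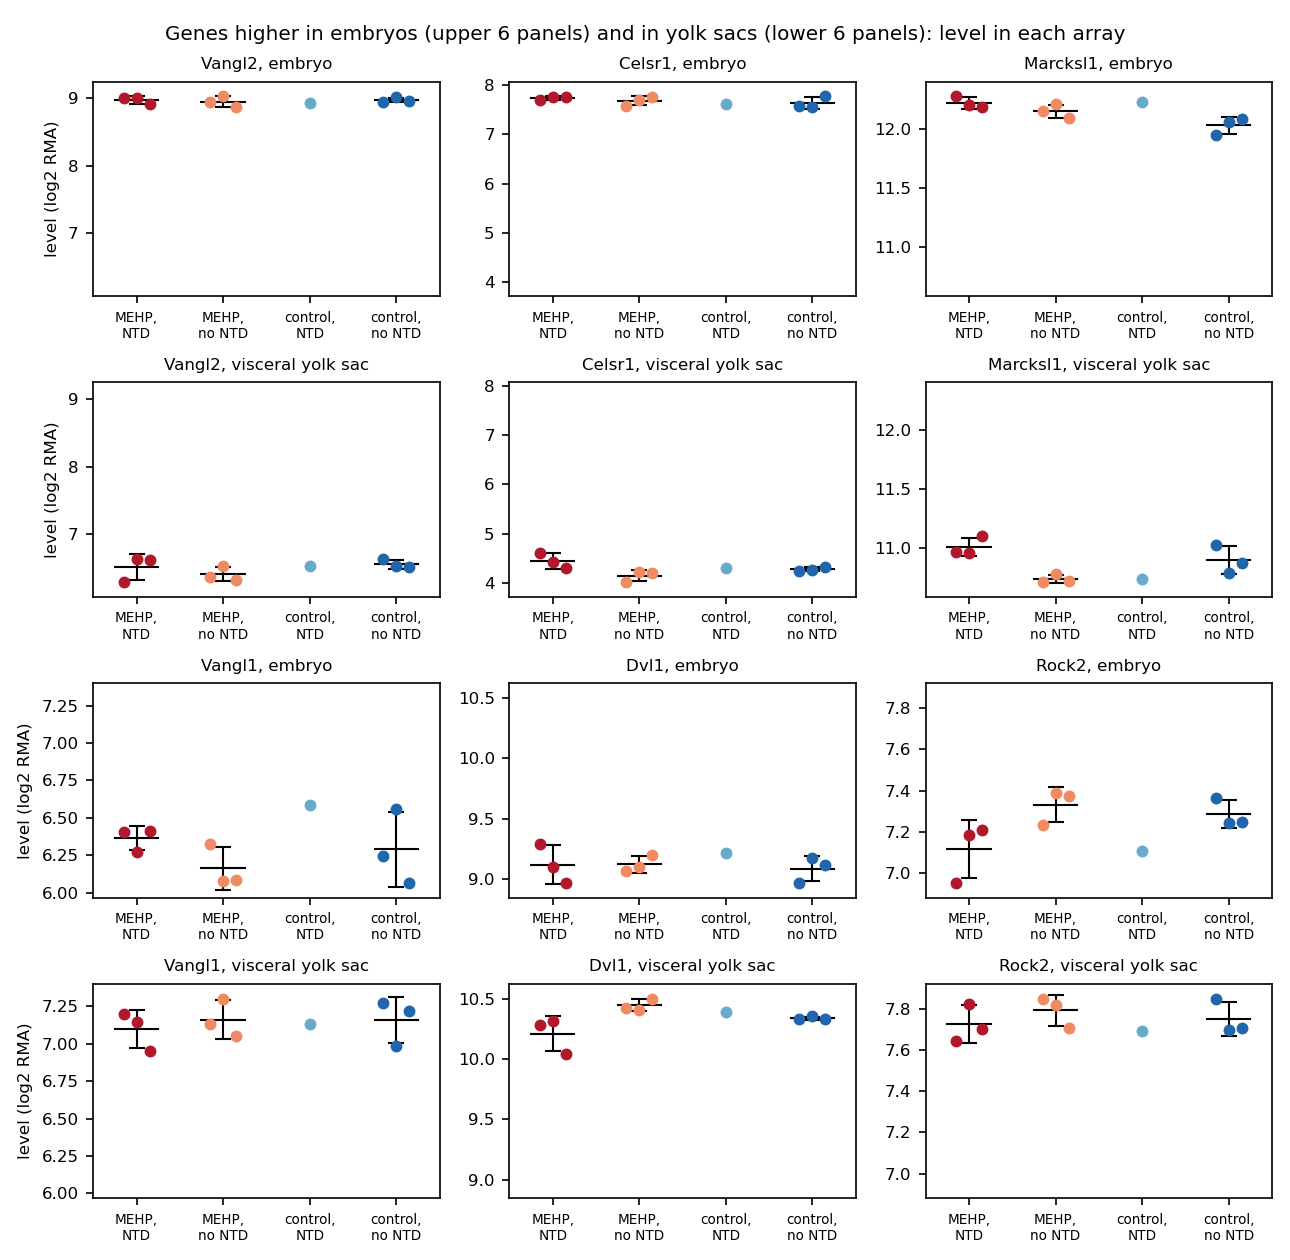
Level of 6 genes in every array (log2 RMA, vertical axis) by group, embryos above yolk sacs for each gene, with points for arrays and lines for mean ± SD where there are 3. Vangl2, Celsr1 and Marcksl1 are higher in embryo arrays and Vangl1, Dvl1 and Rock2 in yolk sac arrays, in all groups.

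Exposure without a visible defect was examined by setting MEHP embryos without NTD against control embryos. Rock1, a kinase that makes myosin contract, rose, and Ift88 fell, and 41 of the 43 did not pass. The 2 calls are 4.65% of the members, where 9.72% of all genes passed (3.82% higher and 5.9% lower). Most members lie above the median gene level of 5.72. Fewer genes in all passed without dim genes, those below that median, so the 2 shares do not compare genes of like level. Rock1 had 9.96, 9.86 and 9.86 in MEHP embryos and 9.58, 9.53 and 9.48 in control embryos. Each MEHP array stood above each control array (0.37 ± 0.10, limma adjusted p = 0.0462). Ift88 had 6.81, 6.82 and 6.91 in MEHP embryos and 7.01, 7.23 and 7.33 in control embryos, also without overlap (-0.34 ± 0.09, limma adjusted p = 0.0471). Both calls are close to the threshold. Rock1 had an adjusted p of 0.0817 to 0.134 when any 1 of the 6 arrays was left out, and Ift88 passed only without the first control (0.0416) and had 0.0929 to 0.138 without any other. Both were lost without dim genes (0.068 for Rock1 and 0.0684 for Ift88), with the nonspecific level as a covariate (0.668 and 0.62) and, in a check chosen after seeing the data, without the embryo arrays of high visceral endoderm level (0.206 and 0.218). Without the arrays of high 3'/5' signal, of which the third control is in this comparison, Rock1 differed by 0.34 (0.0183) and Ift88 by -0.27 (0.0565).

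Members next in order had an unadjusted p below 0.05 and did not pass. Fuz averaged 4.61 in MEHP embryos and 4.96 in control embryos (-0.34 ± 0.10, adjusted p by limma = 0.0631). Cited2 averaged 10.04 and 10.26 in the same order of groups (-0.21 ± 0.07, limma adjusted p = 0.0808). Scrib differed by 0.15 ± 0.06 and Rab23 by 0.25 ± 0.10. In all, 6 members had such a p, which is also true of 28.8% of all genes. Arrays did not overlap for 8 members higher with MEHP and 5 lower, where 12% and 23.2% of all genes did the same. The median was 0.04 over the members and -0.04 over all genes, and the 95% interval of the difference lay within ±0.5 for 39 of the 43.

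Of the cardiac markers 1 of 6 was higher in these embryos, with a median level of 10.24 to 10.43 against 9.94 to 10.05 in control embryos, and 0 of 8 neuron markers passed by limma (0 at an unadjusted p below 0.05). Their part in the values of the members was not tested. By role, 0 of 10 planar polarity, 1 of 13 cytoskeletal, 1 of 9 cilia, 0 of 2 surface ectoderm, 0 of 5 chromatin and 0 of 4 signalling genes passed. Planar polarity genes spanned -0.13 to 0.17, the narrowest of the larger groups, against -0.34 to 0.25 for cilia genes. By its brightest probe set Vangl2 had 8.95, 9.03 and 8.88 in MEHP embryos without NTD and 8.95, 9.02 and 8.97 in control embryos. These values overlap fully (-0.03 ± 0.07, 95% interval -0.17 to 0.12). The dimmer probe sets of Vangl2 moved in opposite directions, each without overlap. Of these, 1455592_PM_at had 7.74 to 7.79 in MEHP embryos without NTD and 7.24 to 7.66 in control embryos. The other, 1419218_PM_at, had 6.42 to 6.55 and 6.74 to 6.88 in the same order of groups. In MEHP embryos with NTD both also lay outside the control range, on the same sides. Celsr1 differed by 0.05, Dvl1 by 0.04 and Ptk7 by 0.00. Of 26 other planar polarity genes Fat4 (0.73 ± 0.11) and Ror1 (0.47 ± 0.11), an atypical cadherin and a Wnt5a receptor, rose and 24 did not pass. Myl9 (0.49) and Myh9 (0.39), light and heavy chains of nonmuscle myosin, were the 2 rises of 37 other cytoskeletal genes. Of 30 other cilia genes Ift122 rose (0.44) and Tmem107 fell (-0.47), and 0 of 21 surface ectoderm genes passed.

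**Figure D3:**
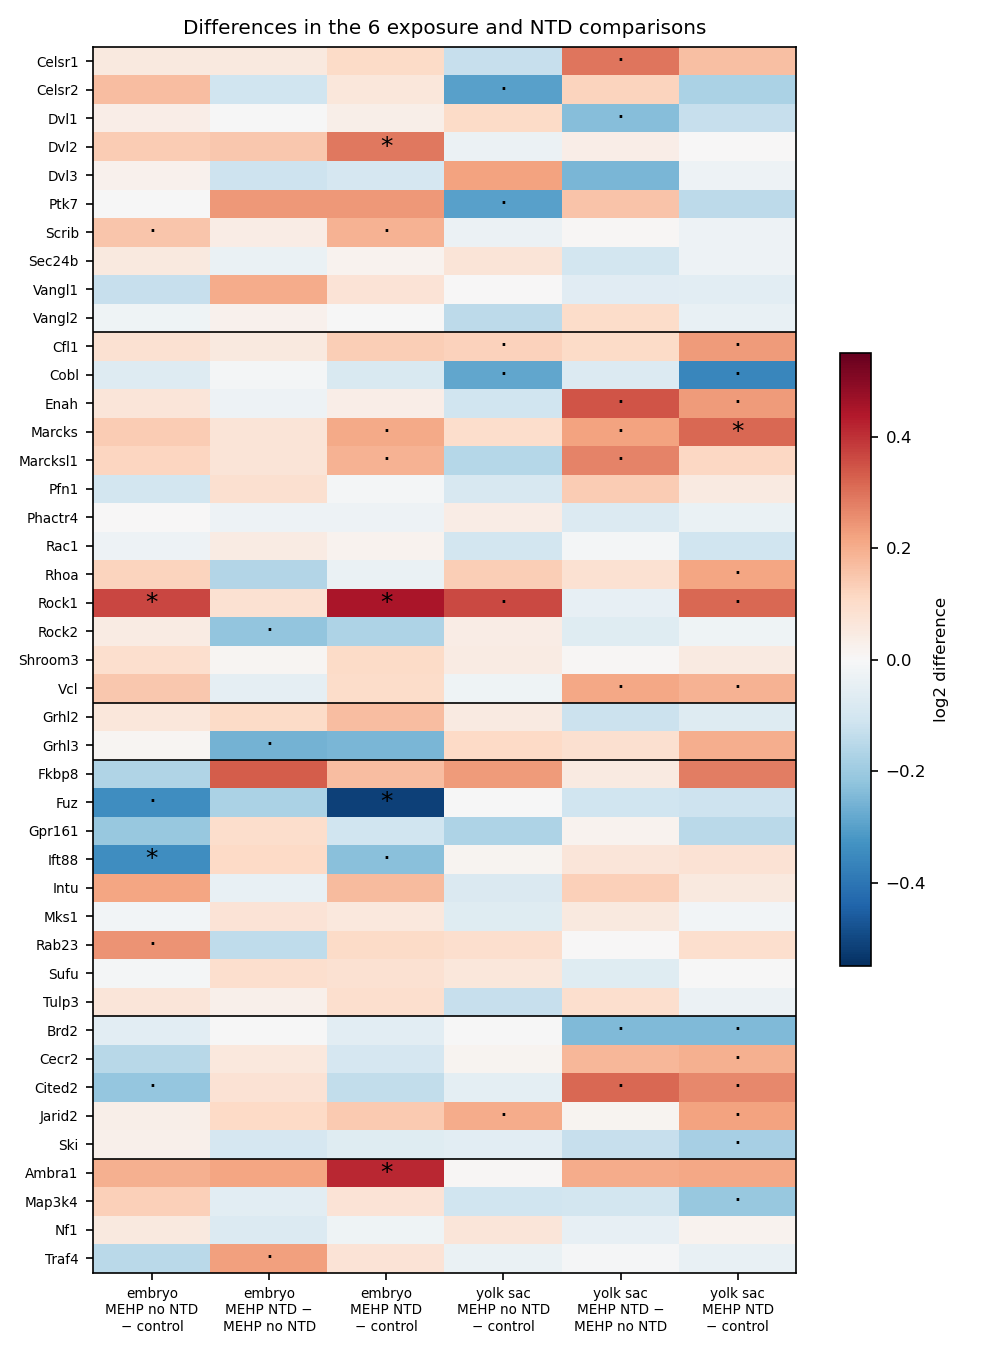
Log2 differences of the 43 genes (rows, by role) in the 6 comparisons within a tissue (columns), red where the group named first is higher. Stars mark an adjusted p below 0.05 and dots an unadjusted p below 0.05. Stars stand at Rock1 (in 2 comparisons), Ift88, Fuz, Ambra1 and Dvl2 in embryos and at Marcks in yolk sacs.

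Exposed embryos with a defect were then set against the same control embryos. Here Rock1, Ambra1 and Dvl2 rose, Fuz fell and 39 did not pass (9.3% of the members, against 7.45% of all genes, 3.21% higher and 4.24% lower). At an unadjusted p below 0.05 there were 8, against 27.7% of all genes. The medians were 0.06 over the members and -0.05 over all genes. Its control arrays are those of the preceding comparison, so neither is independent evidence of the other. Rock1 had 10.22, 9.89 and 9.82 in MEHP embryos with NTD and 9.58, 9.53 and 9.48 in control embryos (0.45 ± 0.10, limma adjusted p = 0.0297). All 3 exposed arrays were above all controls, and the first, an array of high 3'/5' signal, stood well above the others.

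Fuz, which encodes a planar polarity effector needed for cilia, had 4.33, 4.43 and 4.57 in MEHP embryos with NTD and 5.13, 4.93 and 4.81 in control embryos. The groups did not overlap (-0.51 ± 0.10, limma adjusted p = 0.0232). By the brightest probe set this was the largest difference of any member within a tissue. Fuz is a dim gene, and its mean of 4.44 with NTD lies within 0.5 of the highest nonspecific level in embryos, 4.05. That level (3.65 to 3.80 in MEHP embryos and 3.91 to 4.05 in control embryos) was itself lower with MEHP. The size of the Fuz difference is therefore uncertain. Ambra1, a promoter of autophagy whose loss opens the neural tube, had 7.53, 7.54 and 7.55 in MEHP embryos with NTD and 7.21, 7.30 and 6.87 in control embryos. The exposed arrays were nearly equal and the third control, of high 3'/5' signal, was low (0.41 ± 0.10, limma adjusted p = 0.0407, and 0.28, adjusted p = 0.0439, without that control).

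Dvl2 passed by the least margin, with 7.25, 7.02 and 7.04 in MEHP embryos with NTD and 6.90, 6.78 and 6.76 in control embryos. No arrays overlapped (0.29 ± 0.08, limma adjusted p = 0.0497). With 1 array left out, Dvl2 passed in 0 of 6 fits (adjusted p = 0.0712 to 0.111). Rock1 passed in 3, failing without the first control, the second control or the second MEHP array (adjusted p = 0.0668, 0.0658 and 0.0639). Ambra1 and Fuz each passed in 2: Ambra1 without the second control or the third control, otherwise 0.0698 to 0.108, and Fuz without the third control or the third MEHP array, otherwise 0.0511 to 0.0693. Without both arrays of high 3'/5' signal, the first MEHP array and the third control, Rock1 differed by 0.30 (adjusted p = 0.0429), Fuz by -0.53 (0.0306), Ambra1 by 0.29 (0.052) and Dvl2 by 0.19 (0.118). With the embryo arrays of high visceral endoderm level left out, 0 members passed, with differences of 0.50 for Rock1, -0.52 for Fuz, 0.50 for Ambra1 and 0.32 for Dvl2 (adjusted p = 0.149 to 0.225).

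Members that came next and did not pass were Marcks (0.21 ± 0.07, adjusted p by limma = 0.0779), Scrib (0.19 ± 0.06), Marcksl1 (0.19 ± 0.07), Ift88 (-0.23 ± 0.09), Grhl3 (-0.25 ± 0.11) and Rock2 (-0.17 ± 0.09, limma adjusted p = 0.226). Scrib was even within groups, at 9.0, 8.97 and 8.95 in MEHP embryos with NTD and 8.79, 8.78 and 8.78 in control embryos, with no overlap. Arrays did not overlap for 6 members higher and 3 lower, against 9.51% and 20% of all genes. Planar polarity genes spanned -0.09 to 0.29, cytoskeletal genes -0.17 to 0.45, cilia genes -0.51 to 0.18 and chromatin genes -0.13 to 0.14. From the pathway lists Fat4 rose (0.61) and Celsr3, another cadherin of the Celsr family, fell (-0.47) among 26 planar polarity genes. Myl9 (0.57), Myh9 (0.47) and Tln1 (0.42), the adhesion protein talin, rose among 37 cytoskeletal genes. Krt8 (0.38), Krt18 (0.34) and Prss8 (0.41) rose among 21 genes of the surface ectoderm list. Krt8 and Prss8 were lower in control embryos than in control yolk sacs, so they do not mark surface ectoderm alone. Tmem107, of the ciliary base, fell (-0.46) among 30 cilia genes. Over all genes 3.21% were higher and 4.24% lower in this comparison.

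Marker genes moved in the same embryos. Of 8 neuron markers 7 were lower in MEHP embryos with NTD than in control embryos (median -0.77), their median level being 5.91 to 6.13 against 6.66 to 6.71. Of 6 cardiac markers 3 were higher (median 0.54, levels 10.66 to 10.87 against 9.94 to 10.05). Their part in the values of the members was not tested.

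**Figure D4:**
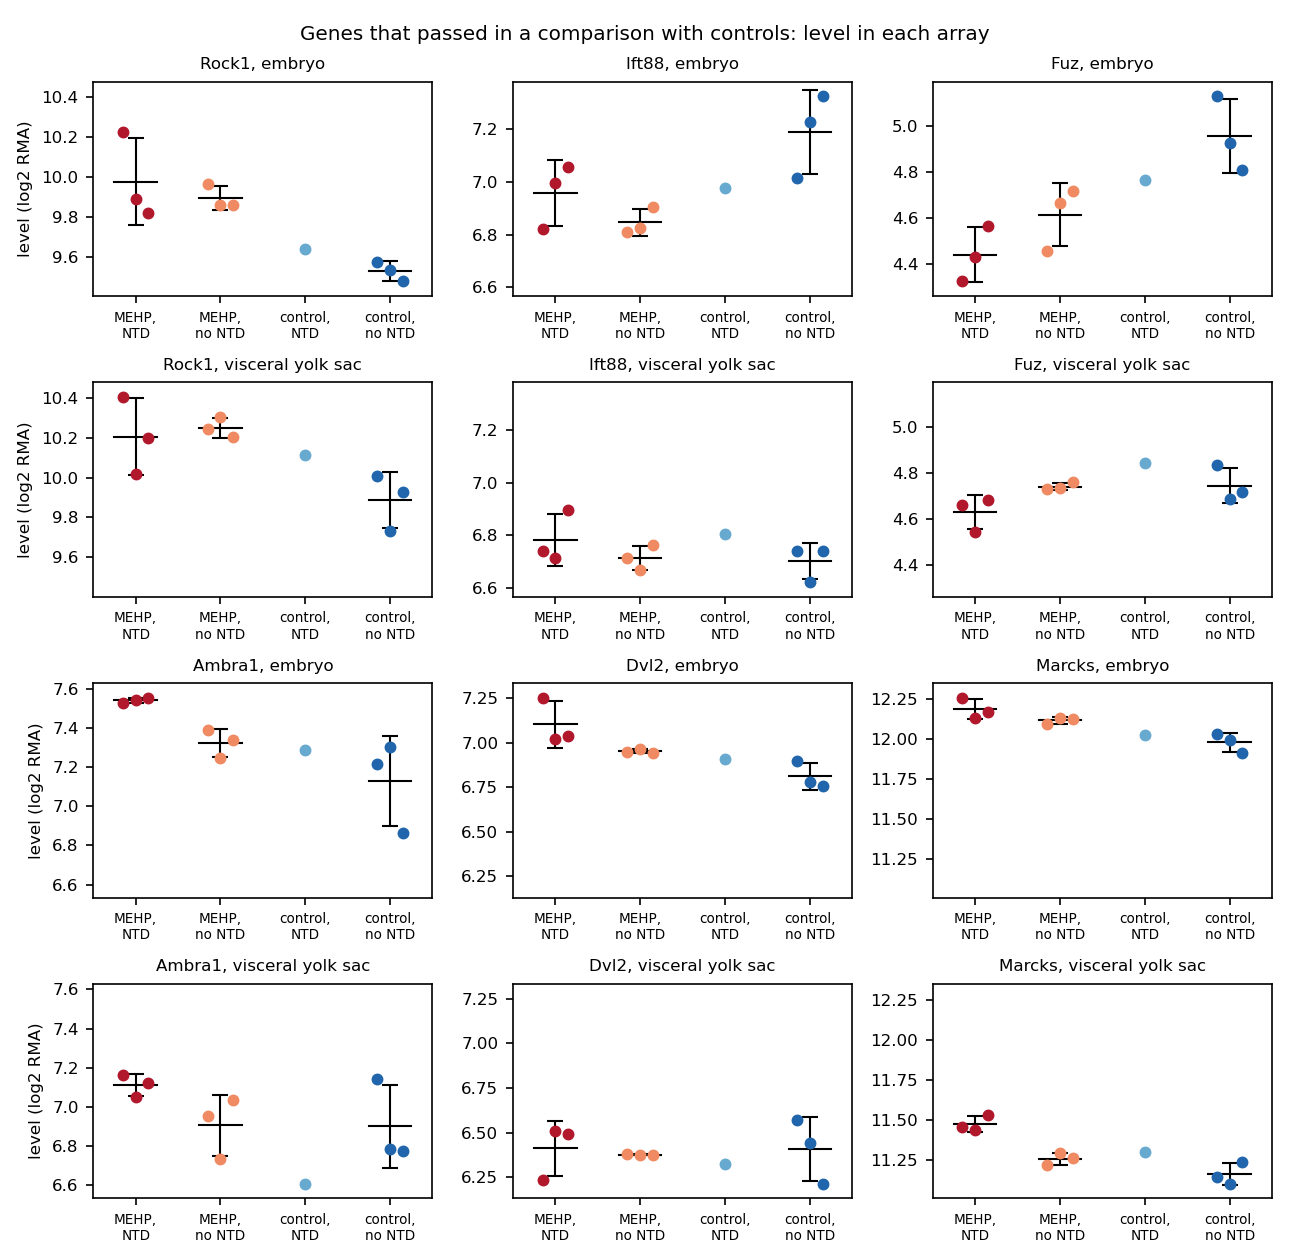
Level of the 6 genes that passed in a comparison with controls, in every array (log2 RMA, vertical axis) by group, embryos above yolk sacs for each gene, with points for arrays and lines for mean ± SD where there are 3. Rock1 in embryos is at 9.82 or above in all 6 MEHP arrays and at 9.64 or below in all 4 controls.

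Whether the panel differs with the defect itself was asked among exposed embryos, MEHP with NTD against MEHP without NTD. No member passed (0 of 43, where 5 genes in all, 0.024%, passed by limma, 0.00962% higher and 0.0144% lower). At an unadjusted p below 0.05 there were 3 members, against 5.66% of all genes. Rock2 had 6.95, 7.18 and 7.21 with NTD and 7.23, 7.39 and 7.37 without (-0.22 ± 0.09, limma adjusted p = 0.821). The values do not overlap but nearly touch. Traf4 differed by 0.23 ± 0.10 and Grhl3, needed for closure of the spinal region, by -0.26 ± 0.11. Fkbp8, an inhibitor of hedgehog signalling, had 8.01, 7.53 and 7.51 with NTD and 7.5, 7.42 and 7.14 without (0.33 ± 0.16). Its high value is that of the array of high 3'/5' signal, and without that array the difference was 0.17 ± 0.11. Neuron markers had a median level of 5.91 to 6.13 with NTD and 6.35 to 6.98 without, and cardiac markers 10.66 to 10.87 with NTD and 10.24 to 10.43 without. By limma 0 of 8 and 0 of 6 of them passed, with 7 and 5 at an unadjusted p below 0.05, and their part in the values of the members was not tested.

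All 43 differences lay between -0.26 and 0.33, with a median of 0.04 (0.00 over all genes). Intervals show what size of difference these 3 arrays a group leave room for. The 95% interval lay within ±0.5 for 40 of the 43 genes and within ±0.25 for 17. Vangl2 had 9.0, 9.01 and 8.92 with NTD and 8.95, 9.03 and 8.88 without, full overlap with a difference of 0.03. Non-overlapping arrays were seen for 5 members higher and 1 lower, against 6.43% and 6.78% of all genes. None (0) of the 26 planar polarity, 37 cytoskeletal, 21 surface ectoderm and 30 cilia genes passed by limma, with 2, 2, 4 and 0 of them at an unadjusted p below 0.05.

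In yolk sacs of exposed conceptuses without NTD, 0 of 43 members passed by the brightest probe set against control yolk sacs (0.313% of all genes passed by limma). An unadjusted p below 0.05 was found for 6, against 17.1% of all genes. Counts over all probe sets of the members are given below. The smallest p was that of Rock1, with 10.241, 10.303 and 10.203 in MEHP yolk sacs without NTD and 10.006, 9.732 and 9.926 in control yolk sacs. All 3 MEHP arrays were above the controls (0.36 ± 0.10, limma adjusted p = 0.132). Celsr2 averaged 4.86 with MEHP and 5.16 in controls (-0.30 ± 0.09), Cobl 4.67 and 4.95 (-0.29 ± 0.10) and Ptk7 6.28 and 6.58 (-0.30 ± 0.12). Celsr2 and Cobl are dim in yolk sacs, where the nonspecific level was itself lower with MEHP (3.70 to 3.83 against 3.87 to 4.08). Jarid2 (0.20 ± 0.08) and Cfl1 (0.13 ± 0.06) were next, and neither passed. The other members lay between the extremes of -0.30 and 0.36. Arrays did not overlap for 6 members higher and 4 lower, against 9.65% and 14% of all genes.

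Yolk sacs with and without an NTD in the embryo gave 0 calls among exposed conceptuses, and 0 genes in all passed by limma (0%). Of the members 8 had an unadjusted p below 0.05, against 9.63% of all genes. Of these, 4 encode actin regulators, where 13 of the 43 members are cytoskeletal. They were singled out after their values were seen. Enah had 9.51, 9.72 and 9.68 with NTD and 9.31, 9.16 and 9.40 without, without overlap (0.35 ± 0.08, limma adjusted p = 0.215). Marcksl1 had 10.97, 10.96 and 11.10 with NTD and 10.71, 10.78 and 10.72 without (0.27 ± 0.07). Marcks (0.22 ± 0.06), Cited2 (0.32 ± 0.08) and Celsr1 (0.29 ± 0.09) also had the higher mean with NTD, and Brd2 (-0.24 ± 0.07) the lower, none past the threshold. Celsr1 averaged 4.29 over the yolk sac arrays, near the highest nonspecific level there, 4.08. Arrays did not overlap for 8 members higher and 6 lower, against 8.89% and 6.3% of all genes.

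Against control yolk sacs, those with both MEHP and an NTD had 1 call. The controls are those of the yolk sac exposure comparison and the MEHP arrays those of the yolk sac NTD comparison. A gene that recurs in these comparisons is therefore not independent evidence. Marcks, which ties actin to the cell membrane and is needed for cranial closure, had 11.45, 11.43 and 11.53 in MEHP yolk sacs with NTD and 11.14, 11.10 and 11.23 in control yolk sacs. The groups were well apart (0.31 ± 0.06, limma adjusted p = 0.0349). That is 2.33% of the members, and 2.38% of all genes passed (1.4% higher and 0.976% lower). Without any 1 of the 6 arrays Marcks had an adjusted p of 0.0627 to 0.112 and a difference of 0.29 to 0.35, the lowest without the second control, of high 3'/5' signal. Of its 6 other probe sets 5 were higher and 1 was lower (-0.24), and 0 passed.

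Behind Marcks came Cfl1 (0.23 ± 0.06, adjusted p by limma = 0.06), Cobl (-0.36 ± 0.10, 0.0867), Brd2 (-0.24 ± 0.07), Rhoa (0.22 ± 0.06), Map3k4 (-0.21 ± 0.07) and Rock1 (0.32 ± 0.10, 0.122), none of which passed. Cfl1 had 12.08, 12.12 and 12.18 in MEHP yolk sacs with NTD and 11.95, 11.88 and 11.86 in control yolk sacs, with no overlap. Altogether 13 members had an unadjusted p below 0.05, against 20.8% of all genes, and 7 of the 13 are cytoskeletal. The other 6 are Map3k4 and all 5 chromatin genes, of which Cited2 (0.26 ± 0.08), Jarid2 (0.22 ± 0.08) and Cecr2 (0.20 ± 0.08) had the higher mean with MEHP and NTD, and Brd2 and Ski (-0.18 ± 0.06) the lower. These were singled out after their values were seen. Arrays did not overlap for 9 members higher and 7 lower, against 11.7% and 13.9% of all genes. Kif7, a ciliary kinesin of the hedgehog pathway, was the single rise in the pathway lists (0.35).

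Whether exposure acted unequally in the tissues was tested as the difference of the effects, embryo minus yolk sac. For MEHP without NTD 0 of 43 members passed (0.0769% of all genes by limma, 0.0289% higher and 0.0481% lower), with 4 at an unadjusted p below 0.05, against 13.1% of all genes. Celsr2 was first, with an effect of 0.17 in embryos and -0.30 in yolk sacs (difference 0.47 ± 0.12, limma adjusted p = 0.137). Ift88 followed, at -0.34 in embryos and 0.01 in yolk sacs (-0.35 ± 0.12). For the NTD among exposed conceptuses 0 passed again (0.0144% of all genes by limma), with 3 at an unadjusted p below 0.05, against 7.64%. Enah was first there (-0.38 ± 0.10, limma adjusted p = 0.291). Rock1, which passed in embryos and not in yolk sacs, was higher by 0.37 and 0.36 with MEHP without NTD.

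The single control with an NTD in each tissue gives no test. In the embryo it lay above all 3 controls for 14 members and below them for 9 (26.5% and 22.3% of all genes did so), and within their range for 20. Its Rock1 was 9.64, against 9.48 to 9.58 in the controls without NTD, and its Fuz was 4.77, against 4.81 to 5.13. Ift88 was 6.98, against 7.01 to 7.33, and Dvl2 6.91, against 6.76 to 6.90. Ambra1, at 7.29, was within 6.87 to 7.30. Each of the other 4 lay just outside the controls and short of the MEHP arrays with NTD, except Ift88, which was within them. Grhl2, at 7.77 against 7.36 to 7.53, was the farthest above. In the yolk sac 10 members were above, 11 below and 22 within (21.1% and 29.5% of all genes lay above and below).

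Probe sets of 1 gene did not always move alike, and the brightest was not always the one that changed. Over the 108 probe sets of the members, with p-values adjusted over 38367 probe sets, 6 rose and 3 fell in MEHP embryos without NTD (10.6% of all probe sets passed). In those with NTD 7 rose and 2 fell (8.01% of all probe sets). Among probe sets that are not the brightest of their gene, 5 rose and 2 fell without NTD. With NTD 5 of these rose and 1 fell. In yolk sacs 2 probe sets of members rose with MEHP without NTD (1.01% of all probe sets passed). With MEHP and NTD 3 rose there (3.17%), and 0 fell in either comparison. Of these yolk sac rises, 2 in each comparison are not the brightest of their gene. The dimmer probe sets described below that passed are all among the rises. Enah, which was level in embryos by its brightest probe set (0.07), has 2 dimmer ones that rose. Its probe set 1442223_PM_at had 7.99, 8.29 and 8.63 in MEHP embryos without NTD and 7.28, 7.89 and 6.91 in control embryos (0.94 ± 0.22, limma adjusted p = 0.0283). The other, 1431162_PM_a_at, had 5.72, 5.95 and 6.18 with MEHP and 5.12, 5.2 and 4.65 in controls (0.96 ± 0.15, limma adjusted p = 0.0074). No MEHP array overlapped the controls in either.

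Rock1 was as uneven. Its dimmest probe set, 1441162_PM_at, had 4.76, 5.09 and 5.0 in MEHP embryos without NTD and 4.05, 4.33 and 4.05 in control embryos (at least 0.80 ± 0.15, limma adjusted p = 0.0142). Its control values lie within 0.5 of the highest nonspecific level, 4.05, so the difference is a bound. It was higher in MEHP yolk sacs too (0.63 ± 0.12 without NTD, limma adjusted p = 0.0464, and 0.64 with NTD). The next brightest after the one reported, 1450994_PM_at, was nearly level in embryos (0.09 ± 0.08). Its other 4 probe sets, well above that level, gave 0.09 to 0.37 in MEHP embryos without NTD and -0.08 to 0.45 in those with NTD.

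Vangl1 has a second probe set, 1441097_PM_at, that rose where the brighter one did not pass. It had 6.32, 6.12 and 6.07 in MEHP embryos with NTD, 5.93, 5.95 and 5.85 in MEHP embryos without NTD and 5.39, 5.42 and 5.67 in control embryos. All 6 MEHP arrays were above the controls, by 0.67 ± 0.10 with NTD (limma adjusted p = 0.0071) and 0.42 ± 0.10 without (0.0263), while the single control with NTD, at 5.84, was above them as well. The brighter probe set gave 0.07 and -0.13. For Ambra1 all 3 probe sets were higher in both comparisons, from 0.19 to 0.51 without NTD and 0.39 to 0.65 with NTD, and 1 passed in the first and 2 in the second. The 2 dimmer ones are at 4.05 to 4.62 in control embryos, near the nonspecific level. The second probe sets of Fuz and Dvl2 lie at or within 0.5 of the nonspecific level in embryos and cannot bear on their calls. Ift88 has 1 probe set only. Which transcripts the probe sets cover was not analysed here.

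**Figure D5:**
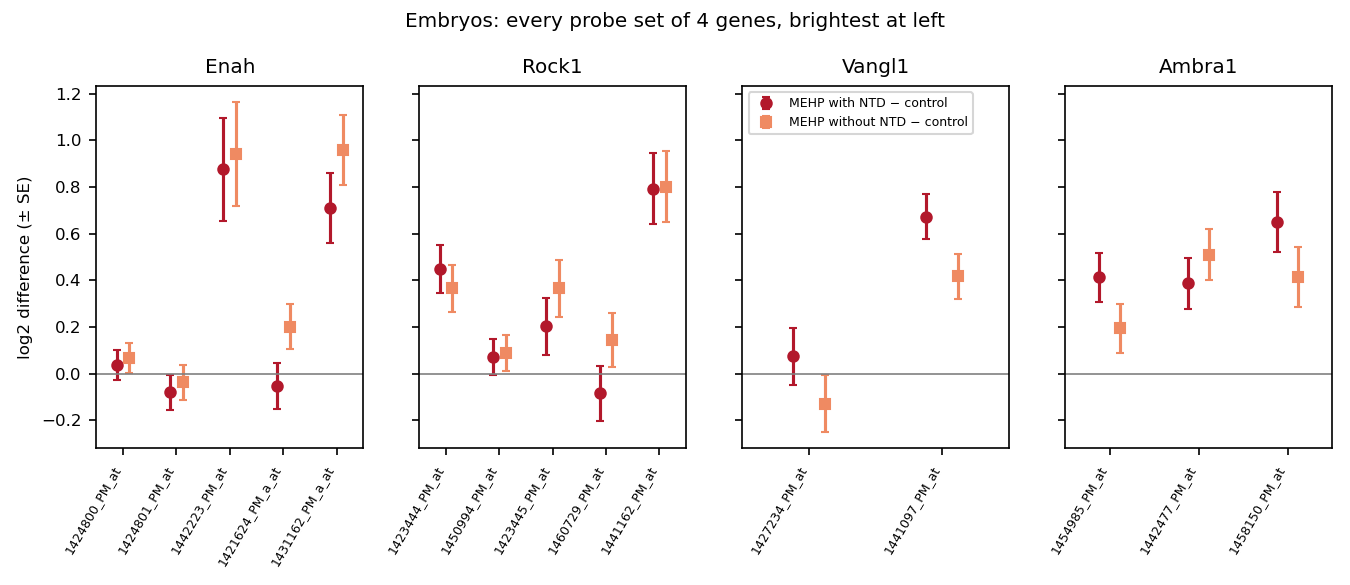
Embryo differences of every probe set of Enah, Rock1, Vangl1 and Ambra1, brightest at left (log2 difference ± SE, vertical axis), circles for MEHP with NTD minus control and squares for MEHP without NTD minus control. The brightest probe set of Enah is near 0 while 2 dimmer ones reach 0.71 to 0.96.

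In the authors' deposited tables of comparisons, which pool arrays with and without NTD, the exposure table of the embryos had 4 members at an adjusted p below 0.05: Rock1 (0.007), Fuz (0.0142), Scrib (0.0404) and Marcks (0.0448). That is 9.3% of the members, and 20.1% of all 45141 probe sets passed in the authors' deposited table. In the authors' deposited table of yolk sac exposure Cobl was the single one (0.0477), or 2.33% of the members, against 4.03% of all probe sets. Cobl is dim there, at 4.39 to 4.78 with MEHP and 4.87 to 5.01 in controls, and the nonspecific level was lower with MEHP. Their deposited NTD tables had 0 members, and 0 probe sets in all, in either tissue. Those tables count the control with NTD among the controls and all 6 exposed arrays together, adjust over 45141 probe sets, and rest on the same arrays.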

How the data were processed

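Affymetrix arrays of 20 samples were analysed. The log2 values were deposited by the authors after RMA, and the submitters' processing notes name RMA, limma and R 2.15.1. The authors' deposited tables also give p-values and a ratio for each probe set. Groups were read from those tables, since 1 of 1022 splits of their arrays gives the deposited log2 difference. Headings of a second value table would put 13 of 20 arrays in another group and 8 in the other tissue, and were tried as an alternative. The columns carry no replicate numbers, and array numbers are names only.

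Of 45141 probe sets, 104 array controls were dropped, as were 6670 that carry no symbol. Entrez identifiers gave a current symbol for 35403 of the 38367 left. limma 3.58.1 in R 4.3.3 fitted 1 mean per group over the 10 arrays of a tissue, or over all 20 between tissues, treating embryos and yolk sacs as independent, with Benjamini-Hochberg adjustment over 20794 genes. The fit was tested on simulated data with independent noise and no shift common to an array. That test checks the computation only. It does not bear on the nonspecific level that separates exposed from control arrays. Figures used Python 3.11.15, pandas 2.3.3 and matplotlib 3.10.9. Members and lists were chosen with earlier results of these data known. The text accounts for all members, giving those past the threshold and up to 6 others with the smallest p in each comparison, and up to 4 genes of a pathway list. Alternatives changed the normalization, the filter on dim genes, the probe set rule, the variance model, the arrays and a covariate for nonspecific signal. The number of arrays limits the precision: the median SE was 0.0866 over the members in embryos and 0.0796 in yolk sacs.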

Additional observations from a re-analysis of the deposited data

How the results depend on the processing

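In the tissue contrast 29 members passed, and 26 to 30 under the alternatives other than the headings. With 1 array left out it was 28 to 30. For MEHP embryos without NTD the count of 2 became 1 after cyclic loess or with the 6 arrays alone, 0 without dim genes, with the nonspecific level as a covariate or without the arrays of high visceral endoderm level, 4 without the arrays of high 3'/5' ratio (the first MEHP embryo array with NTD, the third control embryo array and the second control yolk sac array), and 5 with the mean of a gene's probe sets. It was 0 to 1 with 1 array left out. For MEHP embryos with NTD the count of 4 became 1 after cyclic loess or without dim genes, 2 without the arrays of high 3'/5' ratio, and 0 with the 6 arrays alone, with the covariate or without the arrays of high visceral endoderm level. It was 0 to 3 with 1 array left out. For MEHP yolk sacs with NTD the count of 1 became 2 without dim genes, 3 with trend and robust settings or with all 20 arrays in 1 fit, and 0 with the 6 arrays alone, without the arrays of high 3'/5' ratio or with the covariate. It was 0 to 0 with 1 array left out. The other comparisons had 0 under each alternative except the headings. Under the headings, which mix tissues, counts were 19 and 0 for MEHP embryos without and with NTD against controls, 25 for NTD among MEHP yolk sacs, 0 for MEHP yolk sacs with NTD, 2 between tissues, and 29 and 29 for the differences of effects. Ambra1 (-0.0478) and Dvl2 (-0.0662) in MEHP embryos with NTD and Marcks (-0.069) in yolk sacs then reversed. Over all genes the count for MEHP embryos without NTD was 2021, and 286 to 2493 with 1 array left out, 488 without dim genes, 1094 after cyclic loess and 0 with the covariate. For MEHP embryos with NTD it was 1549, and 270 to 1937, 511, 795 and 0. The causes were not tested. No paired analysis was possible because the columns carry no replicate numbers. Genes near the nonspecific level, such as Gpr161 and Dvl3, and Celsr1 in yolk sacs, have differences limited by signal over background.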
